A study of Homo sapiens with 4 samples.

Results

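Receptor tyrosine kinases are transmembrane receptors that bind a growth factor or another extracellular ligand on the outside of the cell and phosphorylate tyrosines on the inside. Ligand binding brings receptor chains together, the chains phosphorylate each other, and adaptors such as GRB2 dock on the phosphotyrosines and lead to RAS, MAP kinase and PI3 kinase signalling. In the monocyte lineage the best known member is CSF1R, the receptor of macrophage colony stimulating factor, while FLT3 and KIT mark earlier haematopoietic progenitors and are often mutated in acute myeloid leukaemia. A list of 47 genes of this class, of 27193 gene names on the array, was followed here in THP1 cells given a miR-511 mimic. Their probes were taken by gene name among the non-control probes, which gave 72 probes.

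THP1 is a human monocytic cell line derived from an acute myeloid leukaemia, and a mimic is a synthetic RNA duplex that supplies a mature miRNA to the cell. Cells of this single line were transfected once with 30 nM of miR-511-5p mimic (hereafter miR-511 mimic) or of control mimic #1 (hereafter control mimic) and were kept in medium low in serum, so both groups carried a transfected RNA. RNA was taken on day 2. Each of 2 experiments gave 1 array per treatment, 4 one-colour arrays in all, and no untransfected cells are among them. Per array, 64.8% to 69.3% of all probes were well above background. Of 15 listed THP1 marker genes, 13 had a probe with a value on every array. Of these 13, 12 were well above background on all 4 arrays (among them CD33, MPO, SPI1 and CEBPA). The exception was MEIS1. Epithelial and fibroblast markers were below background in 5 of 6 cases, whereas both endothelial markers, 2 of 3 B cell markers, 2 of 3 erythroid markers, 2 of 3 megakaryocyte markers and 1 of 4 T cell markers were above it on all 4 arrays.

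The mimic carried the mature miR-511-5p sequence, printed here with its seed (bases 2 to 8) in capitals because the seed decides which transcripts a miRNA can pair with. It comes from RefSeq, at chr10:17845122-17845142 on the plus strand of GRCh38.p14.
miR-511-5p: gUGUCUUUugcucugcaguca
The letters complementary to that seed, AAAGACA, stood in 2 of the 72 receptor probes (2.78%) and in 331 of all 34127 probes (0.97%). Both receptor probes with these letters, for NTRK2 and EPHB2, were below background on all 4 arrays, so neither was measured. A probe covers 60 bases of a transcript, and the rest of each transcript was not searched.

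**Figure D1:**
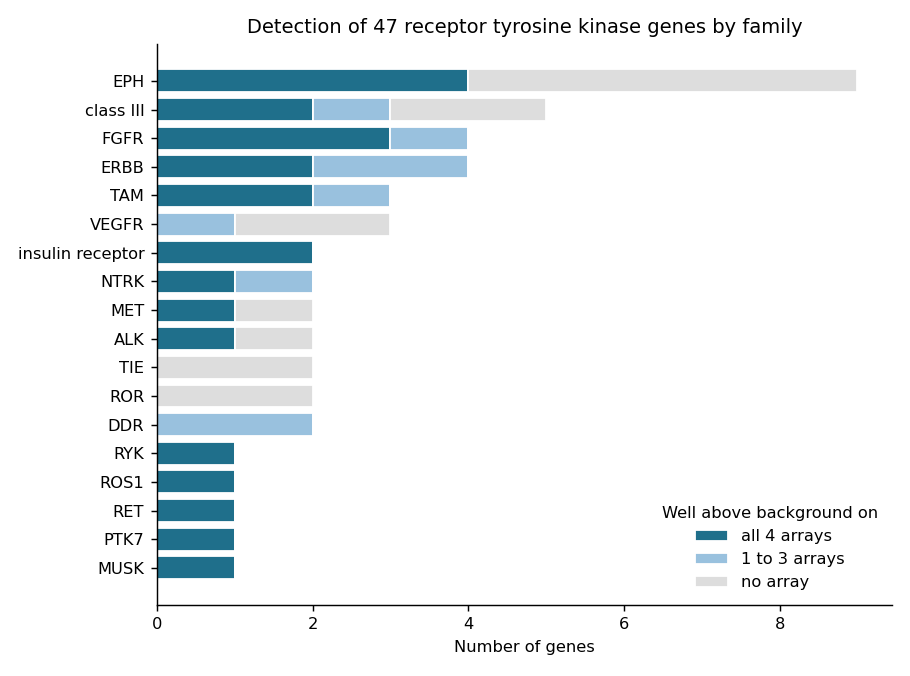
Number of receptor tyrosine kinase genes per family (x axis) by how many of the 4 arrays had at least 1 probe of the gene well above background. All 4 arrays detected 23 of the 47 genes. The EPH family has the most genes on either side, with 4 detected throughout and 5 on no array.

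A gene was called expressed when at least 1 of its probes was well above background on all 4 arrays. That held for 23 of the 47 receptors (48.9%), against 17193 of 27193 gene names (63.2%). A further 9 receptors were above background on 1 to 3 arrays, and 15 (31.9%) on none, against 28.8% of all gene names. The plot of detection by family shows the receptors that were not detected as well as those that were. A probe below background does not show that its gene is silent. EPHB2, for example, was expressed by 1 of its 3 probes, although other EPHB2 probes were below background on every array. The TIE receptors of endothelium (TEK and TIE1), the ROR receptors (ROR1 and ROR2), the PDGF receptors (PDGFRA and PDGFRB) and the VEGF receptors FLT1 and KDR were on no array. MET, ALK, EPHA2, EPHA3, EPHA4, EPHB1 and EPHB3 were on none either. Between these classes stood FGFR2, EGFR, ERBB4, KIT, FLT4, MERTK, NTRK2, DDR1 and DDR2. Each of these 9 genes was above background on 1, 2 or 3 arrays only.

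The class III receptors contain the CSF1, FLT3 ligand, stem cell factor and PDGF receptors. CSF1R, measured by a probe printed 10 times, gave log2 intensities of 11.26 with miR-511 mimic and 11.22 with control mimic in experiment 1, and 11.04 and 10.94 in experiment 2. The 2 treatments overlapped, because both arrays of experiment 1 lay above both arrays of experiment 2, by 0.25 on average. The log2 difference, miR-511 minus control mimic, was 0.069 (SE 0.150, unadjusted p = 0.669 in limma), while the SD among the spots of one array was only 0.0275 to 0.0683. FLT3 gave 10.02 and 10.25 in experiment 1 and 9.95 and 10.04 in experiment 2. Both FLT3 values with miR-511 mimic lay below both with control mimic, by a mean log2 difference of -0.16 (SE 0.116) that did not pass the threshold (unadjusted p = 0.245 in limma).

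KIT differed between the experiments rather than between the treatments, and it was singled out after its values were seen. Its probe printed 10 times read 4.51 and 4.76 in experiment 1, with miR-511 and control mimic in that order, and 3.17 and 3.27 in experiment 2. In experiment 1, 10 of 10 spots were well above background on both arrays, and in experiment 2 only 1 of 10 on both. Since the probe was not above background in experiment 2, the size of the difference between the experiments was not measured (means 4.63 and 3.22). Against a floor value computed as for ERBB3 later, experiment 1 was 2.43-fold higher, and a higher floor would lower that figure. Within experiment 1 the treatments differed by -0.25. The probe was not tested, since neither treatment had it above background on both arrays, and the other 2 KIT probes were below background throughout. MEIS1, the marker that was not above background on all 4 arrays, showed the same division, with 4.25 and 4.14 in experiment 1 and 1.92 and 2.53 in experiment 2. Whether the 2 genes are connected was not tested.

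**Figure D2:**
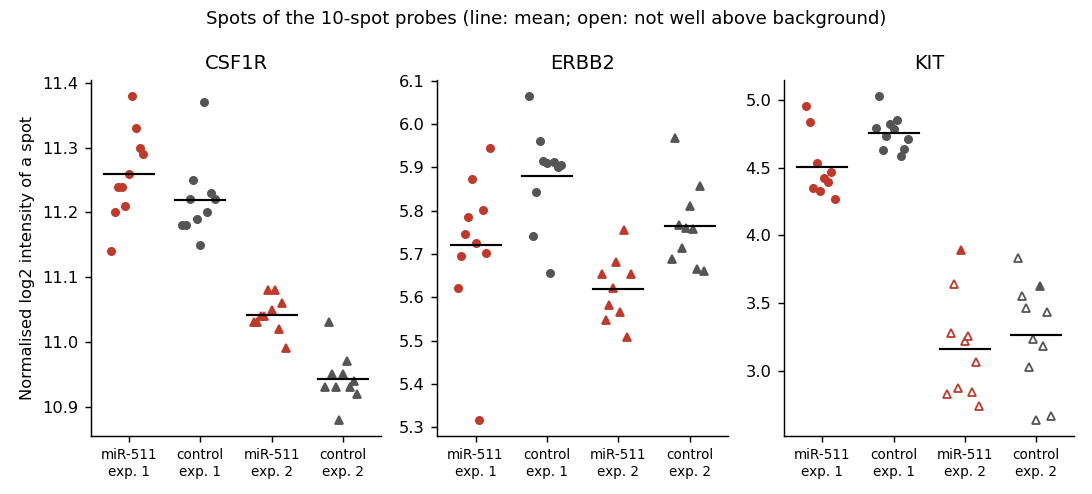
Normalised log2 intensity (y axis, a separate scale per gene that does not start at 0) of each spot of the probes printed 10 times for CSF1R, ERBB2 and KIT, on each array (x axis). Lines are means over spots, open symbols are spots not well above background. For CSF1R and KIT the spots of experiment 1 lie above those of experiment 2, and for ERBB2 the mean with miR-511 mimic lies below that with control mimic in both experiments.

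The promoters of the detected class III receptors are shown because both genes were expressed and belong to the myeloid lineage, as the 250 bases before each start in RefSeq. The capitals mark GAGGAA or, on the other strand, TTCCTC, the purine-rich core to which SPI1 (PU.1), a master regulator of myeloid genes that was itself detected on all 4 arrays, can bind. Both lie on the minus strand of GRCh38.p14, CSF1R at chr5:150086555-150086804 and FLT3 at chr13:28100577-28100826.
CSF1R: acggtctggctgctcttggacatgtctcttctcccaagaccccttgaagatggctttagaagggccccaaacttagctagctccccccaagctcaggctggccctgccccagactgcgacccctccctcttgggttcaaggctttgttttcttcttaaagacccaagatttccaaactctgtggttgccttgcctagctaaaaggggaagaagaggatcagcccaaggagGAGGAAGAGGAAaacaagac
FLT3: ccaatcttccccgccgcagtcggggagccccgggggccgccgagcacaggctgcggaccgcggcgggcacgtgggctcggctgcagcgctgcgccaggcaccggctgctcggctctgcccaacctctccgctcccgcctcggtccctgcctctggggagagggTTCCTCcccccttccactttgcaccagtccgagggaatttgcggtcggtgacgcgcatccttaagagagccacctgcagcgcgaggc
CSF1R held 2 such matches in this window and FLT3 held 1. Of the 2 CSF1R starts listed, the one with more matches is printed. In the full windows of 300 bases, which reach 50 bases past the start, the printed CSF1R start had 4 CG pairs and FLT3 had 34, and the other CSF1R start (chr5:150113316-150113615) had 0 matches and 8 CG pairs. The letters did not separate detected from undetected receptors: they stood in 32.1% of 28 promoters of expressed members, in 32.0% of 25 promoters of members on 1 to 3 arrays, in 31.6% of 19 promoters of members on no array and in 27.9% of all 35116 promoters. The median number of CG pairs was 26, 9 and 20 in those 3 classes and 14 over all promoters. A match is a run of letters and not a measured binding site, and genes with several listed starts enter more than once, DDR1 most often. No promoter was listed for ERBB3, FGFR1 or FLT4.

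The treatments were compared over 30 receptor probes of 24 genes. A probe was tested if each array gave a value and if, for 1 treatment or both, the 2 arrays were well above background. The other 42 probes were not tested, 33 of them below background on every array. At the study's threshold, an unadjusted p below 0.05 in limma, 3 of the 30 probes were called, all lower with miR-511 mimic, namely 1 probe each of ERBB3, FGFR3 and ROS1. Over all 22638 tested probes, 2.20% were called in either direction and 0.932% were called lower. The ERBB3 probe was tested only because both control arrays were above background, so it could hardly be called in the other direction. Refitted over probes well above background on all 4 arrays, 2 of 28 receptor probes were called (FGFR3 and ROS1), against 1.82% of all such probes. ERBB3 and FGFR3 are genes that the study picked out on these same arrays, so their direction here is not independent evidence. For FGFR3 the paper also reported a trend to lower values by quantitative PCR in additional experiments. Its UTR did not respond to miR-511 in the paper's reporter assay. After Benjamini-Hochberg adjustment 0% of the tested probes passed (0 probes, against 498 at an unadjusted p below 0.05), and the smallest adjusted p in limma was 0.790. The receptors' own adjusted p-values were all 1.00 to 3 digits. Taking only the brightest tested probe of each gene, 1 of 24 receptors was called (ROS1), against 2.12% of all gene names. With 2 arrays per treatment an exact permutation test cannot give a p below 0.333. A call at this threshold therefore needs a test that assumes a distribution of the values, as limma does. A lower value in such whole-culture RNA can come from fewer cells with the transcript or from less transcript per cell, and these cannot be told apart.

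**Figure D3:**
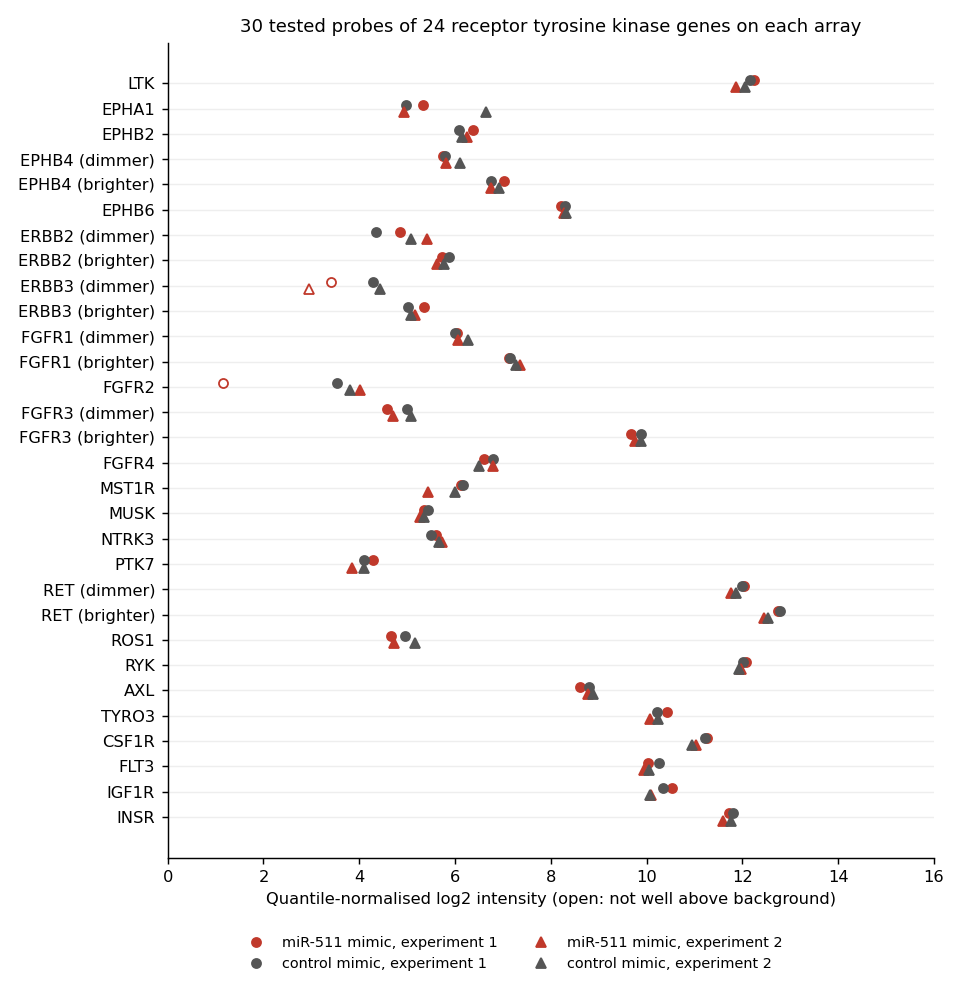
Quantile-normalised log2 intensity (x axis) of the 30 tested probes (rows, by family) on each of the 4 arrays. Red is miR-511 mimic, grey control mimic, circles experiment 1, triangles experiment 2, open symbols not well above background. Most rows have both colours side by side, and the dimmer ERBB3 probe has both red symbols open and to the left of the grey ones.

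The ERBB family includes the receptors of EGF and the neuregulins. ERBB3 binds neuregulins and has little kinase activity of its own, so it signals in pairs with other ERBB receptors. Its probe at chr12:56496160-56496219 (hg19, plus strand) gave 3.41 with miR-511 mimic and 4.28 with control mimic in experiment 1, and 2.94 and 4.43 in experiment 2. Both values with miR-511 mimic were lower than both with control mimic (mean 3.18 ± 0.332 against 4.35 ± 0.105, SD, n = 2 each). Neither miR-511 array was well above background at this probe, so the size of the difference was not measured. Taken against a floor value, it was 1.95-fold lower with miR-511 mimic. The fit gave an unadjusted p of 0.00324 (adjusted p 1.00, limma), for a probe that entered the test through its control arrays alone. The floor is, for each miR-511 array, the higher of the probe's own signal and the lowest signal among probes well above background. It is not a detection limit, because other probes not well above background read higher. An EGFR probe read 3.96 on the miR-511 array of experiment 1, and the FLT4 probe 3.63 on that of experiment 2. A higher floor would give a smaller difference.

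A second ERBB3 probe, at chr12:56479217-56479276, read higher with miR-511 mimic instead. The array annotates it to a different RefSeq transcript from the other ERBB3 probes, and ERBB3 counted as expressed through it alone. It was well above background on all 4 arrays and gave 5.36 and 5.01 in experiment 1 and 5.16 and 5.07 in experiment 2. Both miR-511 values lay above both control values, with a log2 difference of 0.21 (SE 0.115) that did not pass the threshold (unadjusted p = 0.132 in limma). The third probe, at chr12:56482380-56482439, was below background on all arrays. The letters that the 2 tested probes read are given by their first 30 of 60 bases, since they show that the opposite differences came from separate stretches of the gene. Their exon or UTR was not analysed here.
ERBB3 lower with miR-511 mimic: gctcttgactacttggaactaggctcttat
ERBB3 higher with miR-511 mimic: ttttctaatttcaaagtacagtgtaccgga

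ERBB2, the ERBB receptor without a known ligand of its own and the usual partner of ERBB3, was also read by a pair of probes that disagreed. The probe printed 10 times, at chr17:37884829-37884888 (hg19, plus strand), gave 5.72 and 5.88 in experiment 1 and 5.62 and 5.76 in experiment 2. It read lower with miR-511 mimic by nearly the same amount each time (-0.16 and -0.15), with no overlap between the treatments, yet the combined difference of -0.15 (SE 0.103) did not pass the threshold (unadjusted p = 0.211 in limma). The other probe, at chr17:37851136-37851195, is annotated by the array to a sequence that is not from RefSeq. Its position was not compared with RefSeq transcripts. It gave 4.84 and 4.35 in experiment 1 and 5.42 and 5.07 in experiment 2. It was higher with miR-511 mimic in each experiment, by 0.50 and 0.35, while the treatments overlapped because experiment 2 read 0.65 higher than experiment 1. Its log2 difference of 0.42 (SE 0.334, unadjusted p = 0.273 in limma) passed the threshold when limma held the experiment as a block (unadjusted p = 0.0175). The first 30 bases of both are printed for the same reason as those of ERBB3.
ERBB2 lower with miR-511 mimic: aatgggtgttgtatggggaggcaagtgtgg
ERBB2 higher with miR-511 mimic: ggggctttcaagggacaagtatgggggttg
EGFR, the founding member of the family, was above background on 1 array at 1 of its 3 probes, and its probe printed 10 times read 1.39 to 1.57 with no spot above background on any array. ERBB4, a neuregulin receptor, was above background on 1 array.

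The FGF receptors bind fibroblast growth factors. FGFR3 had 2 tested probes, both lower with miR-511 mimic in both experiments and neither with overlap between the treatments. The probe at chr4:1809054-1809113 (hg19, plus strand) gave 4.58 and 5.00 in experiment 1 and 4.69 and 5.07 in experiment 2 (mean 4.64 ± 0.0808 with miR-511 mimic against 5.04 ± 0.0503 with control mimic, SD, n = 2 each). Its log2 difference was -0.40 (SE 0.0997, unadjusted p = 0.0152 in limma). The brighter probe, at chr4:1810363-1810422, gave 9.68 and 9.88 in experiment 1 and 9.75 and 9.87 in experiment 2. Its log2 difference of -0.16 (SE 0.0917) did not pass the threshold (unadjusted p = 0.157 in limma). The 2 probes differed in size by 0.24, and the bases they start with are given because they place the larger difference on a separate stretch from the smaller.
FGFR3, larger difference: cactccccggcatgagactcagtgcagatg
FGFR3, smaller difference: tgctacctttcaaagcttggagggaagccg

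FGFR1, the broadly expressed FGF receptor, showed no common direction. Its brighter probe gave 7.14 and 7.16 in experiment 1 and 7.37 and 7.28 in experiment 2 (log2 difference 0.032), and its dimmer probe 6.05 and 6.01, then 6.07 and 6.28 (-0.086). FGFR4 gave 6.60 and 6.79 in experiment 1 and 6.78 and 6.51 in experiment 2, so its sign turned between the experiments (-0.19 and 0.28). FGFR2 was not expressed by the rule and is given, after its values were seen, because 1 array set its difference. It read 1.16 and 3.53 in experiment 1 and 4.01 and 3.82 in experiment 2. Only the miR-511 array of experiment 1 was not above background, and the log2 difference of -1.09 had an SE of 0.998 (unadjusted p = 0.336 in limma). Without that array it was 0.34. Without the miR-511 array of experiment 2 the fit called the probe, but the array then left for miR-511 mimic was the one below background, so no size is given.

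ROS1, a receptor known for oncogenic fusions in lung cancer, was the one receptor called at its brightest probe, which is also its single probe. It gave 4.66 and 4.97 in experiment 1 and 4.73 and 5.15 in experiment 2 (mean 4.69 ± 0.0489 with miR-511 mimic against 5.06 ± 0.134 with control mimic, SD, n = 2 each). Both values with miR-511 mimic lay below both with control mimic, and the log2 difference was -0.37 (SE 0.112, unadjusted p = 0.0297 in limma). The probe lies at chr6:117609613-117609672 (hg19, minus strand).

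The 3 calls were recomputed with single arrays left out. Each such fit leaves 1 array in a treatment, which is assumed to vary like the pair of the other treatment. The ERBB3 probe stayed past the threshold in all 4 fits (unadjusted p 0.00103 to 0.0204 in limma), with its miR-511 values below background as before, and it is not tested at all when every array must be above background. The FGFR3 call was lost without the miR-511 array of experiment 1 (unadjusted p = 0.0719 in limma) and without the control array of experiment 1 (unadjusted p = 0.0523) or 2 (unadjusted p = 0.0813), while its log2 difference stayed between -0.46 and -0.34. The ROS1 call was lost without the miR-511 array of experiment 1 (unadjusted p = 0.109 in limma) or 2 (unadjusted p = 0.0691) and without the control array of experiment 2 (unadjusted p = 0.138), while its log2 difference stayed between -0.46 and -0.27. None of the 3 passed after normexp background correction, where the log2 difference was -0.11 for FGFR3 and -0.09 for ROS1. That of the ERBB3 probe was -0.19 with this correction and -1.17 without it. With an intensity trend in limma, which leaves the differences as they are, the calls of FGFR3 (unadjusted p = 0.0777) and ROS1 (unadjusted p = 0.104) were lost and that of ERBB3 passed. The plain equal-variance comparison lost ROS1, kept ERBB3 and the dimmer FGFR3 probe, and added the brighter FGFR3 probe.

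**Figure D4:**
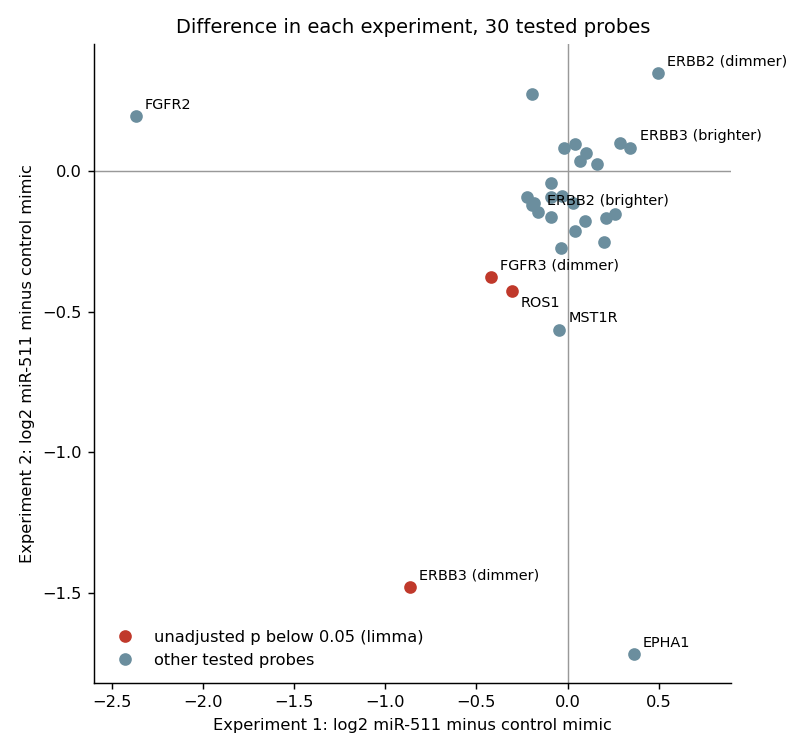
Log2 difference, miR-511 minus control mimic, in experiment 1 (x axis) and experiment 2 (y axis) for the 30 tested probes. The 3 called probes (red) all lie in the lower left part, where both experiments were lower with miR-511 mimic. FGFR2 and EPHA1 lie far out along one axis, which means that one experiment alone gave their difference. The dimmer ERBB3 probe in both experiments and FGFR2 in experiment 1 rest on miR-511 arrays not well above background, so the size drawn is not measured.

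Of the 30 tested receptor probes 19 were lower and 11 higher, with a median log2 difference of -0.0623, against 0.00979 over all tested probes, where 46.3% were lower. The median was -0.0243 in experiment 1 and -0.111 in experiment 2, and it turned to 0.0434 over all 72 probes with no filter on dim probes. Leaving out the ERBB3 and FGFR2 probes that were not above background on all 4 arrays, 17 of 28 were lower and 11 higher, with a median of -0.0498 against 0.0115 over all such probes. The median of these 28 was 0.00543 in experiment 1 and -0.111 in experiment 2, so the lower median then came from experiment 2. The same sign occurred in both experiments for 20 of the 30 probes (66.7%), 13 lower and 7 higher, against 51.0% of all tested probes. Among the 28 above background on all 4 arrays it occurred for 19 (67.9%), against 50.5% of all such probes. The treatments did not overlap at 12 of the 30 probes (40.0%), against 25.7% of all tested probes. Without overlap and with the miR-511 values lower stood 10 of the 30 (33.3%), against 10.1% of all tested probes. Among probes without overlap alone, the lower ones made up 83.3% of the receptors' and 39.4% of all. These 10 were both FGFR3 probes and probes of ERBB2, ERBB3, FLT3, INSR, AXL, ROS1, MUSK and EPHB6. The ERBB3 probe among them entered the test through its control arrays alone, which favoured its lower place. The shares of probes without overlap were not recounted without it. Of the 30 differences, 27 were within 2 SE of 0, against 21244 of 22638 over all tested probes.

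The listed members of the insulin receptor family, INSR and IGF1R, were expressed. INSR, the insulin receptor, gave 11.71 and 11.80 in experiment 1 and 11.59 and 11.76 in experiment 2, with both miR-511 values below both control values (log2 difference -0.13, SE 0.0987, unadjusted p = 0.266 in limma). IGF1R, the receptor of insulin-like growth factor 1, gave 10.52 and 10.35 in experiment 1 and 10.09 and 10.06 in experiment 2. Its experiments were further apart (-0.36, experiment 2 minus 1) than its treatments (0.094, SE 0.200).

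Of the TAM receptors, a family whose ligands include GAS6 and PROS1 on apoptotic cells, AXL and TYRO3 were expressed. MERTK, the member best known from macrophages, was above background on 1 array (control mimic, experiment 1). AXL gave 8.61 and 8.79 in experiment 1 and 8.77 and 8.89 in experiment 2, and the miR-511 values were the lower ones without overlap (log2 difference -0.15, SE 0.110, unadjusted p = 0.252 in limma). TYRO3 gave 10.43 and 10.22 in experiment 1 and 10.08 and 10.24 in experiment 2, so the sign turned (0.21 and -0.17). MST1R, the receptor of macrophage-stimulating protein and the relative of MET, gave 6.12 and 6.16 in experiment 1 and 5.44 and 6.0 in experiment 2. Its log2 difference of -0.30 (SE 0.257, unadjusted p = 0.300 in limma) came mainly from experiment 2. Without the miR-511 array of experiment 1 it passed the threshold (-0.64, unadjusted p = 0.0154 in limma, 1 miR-511 array against 2 control arrays), and without that of experiment 2 it was 0.034.

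RET, the receptor of the GDNF family of ligands, was read by 2 probes that agreed. They gave 12.75 and 12.78 in experiment 1 and 12.45 and 12.54 in experiment 2, and 12.03 and 12.00, then 11.76 and 11.87. Their log2 differences of -0.059 (SE 0.161) and -0.040 (SE 0.138) were 0.018 apart and far within their errors. LTK, a receptor related to ALK, gave 12.25 and 12.16 in experiment 1 and 11.87 and 12.05 in experiment 2 (log2 difference -0.041, SE 0.163). RYK, a Wnt co-receptor whose kinase domain is inactive, gave 12.08 and 12.02 in experiment 1 and 11.96 and 11.93 in experiment 2 (0.052, SE 0.103). PTK7, another pseudokinase of Wnt signalling, gave 4.29 and 4.09 in experiment 1 and 3.86 and 4.11 in experiment 2, so its sign turned (0.20 and -0.25).

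NTRK3, the neurotrophin-3 receptor, was expressed by 1 of its 4 probes, which gave 5.60 and 5.50 in experiment 1 and 5.73 and 5.67 in experiment 2 (log2 difference 0.082, SE 0.115). Its other probes were above background on 1 array at most. MUSK, the agrin-responsive receptor of the neuromuscular junction, gave 5.34 and 5.44 in experiment 1 and 5.26 and 5.35 in experiment 2. The MUSK difference was -0.09 in both experiments and stayed within its SE of 0.0971.

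The EPH receptors bind ephrins on neighbouring cells. EPHB2 was expressed by 1 of its 3 probes, with 6.37 and 6.08 in experiment 1 and 6.24 and 6.14 in experiment 2. Both miR-511 values lay above both control values, but the log2 difference of 0.20 (SE 0.101) did not pass the threshold (unadjusted p = 0.122 in limma). EPHB6, a pseudokinase, gave 8.21 and 8.30 in experiment 1 and 8.27 and 8.31 in experiment 2 (-0.066, SE 0.0907). EPHB4, the ephrin-B2 receptor, gave 7.01 and 6.75, then 6.75 and 6.91, at its brighter probe (0.054) and 5.75 and 5.79, then 5.82 and 6.09, at the other (-0.16). EPHA1 gave 5.34 and 4.97 in experiment 1 and 4.93 and 6.65 in experiment 2. The control array of experiment 2 stood apart from the other three, and the log2 difference of -0.68 (SE 0.607, unadjusted p = 0.325 in limma) was 0.16 without that array and -1.52 (unadjusted p = 0.00562 in limma, 1 control array against 2 miR-511 arrays) without the control array of experiment 1.

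**Figure D5:**
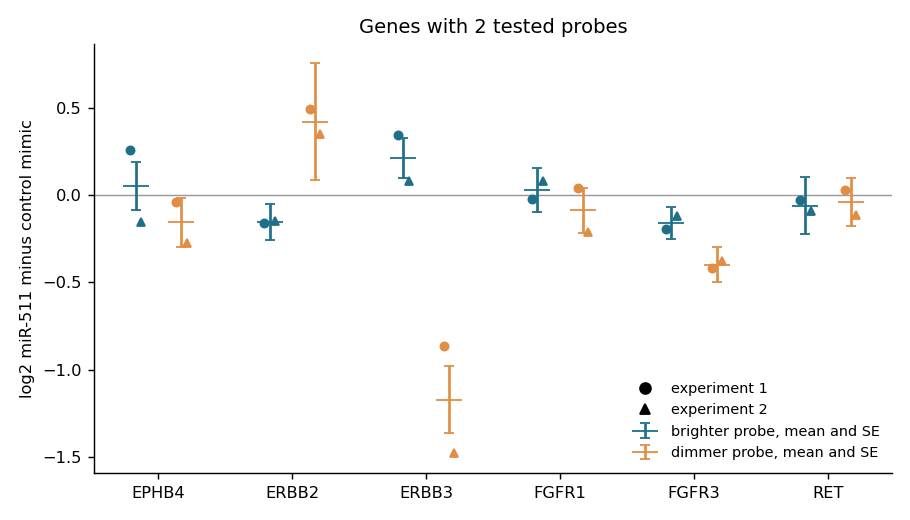
Log2 difference, miR-511 minus control mimic (y axis), at the brighter and the dimmer tested probe of the 6 receptors with 2 tested probes. Bars are mean and SE from limma, circles experiment 1 and triangles experiment 2. The 2 probes of ERBB3 and of ERBB2 lie on opposite sides of 0 in both experiments, and those of FGFR3 both lie below 0. The dimmer ERBB3 probe was not well above background on the miR-511 arrays, so its position is not a measured size.

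Agreement among probes could be read for few genes. Of the 17 receptors with 2 or more probes, 5 had all probes well above background on all 4 arrays, 3 had some and 9 had none. Of the 6 genes with 2 tested probes, the mean difference had the same sign at both probes for FGFR3 and RET. The signs were opposite for ERBB2, ERBB3, FGFR1 and EPHB4. The probes of ERBB3 were 1.18 apart on the log2 scale with the dimmer one set at its floor, and a higher floor would lower that figure. Those of ERBB2 were 0.58 apart, those of EPHB4 0.21 and those of FGFR1 0.12. The difference between probes of a gene was not tested.

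The partners of the receptors showed no call at the study's threshold. Of the other genes of the pathway, 105 had a tested probe, and 0 passed the unadjusted threshold in limma at their brightest probe, against 2.12% of all gene names. The plain equal-variance comparison called 2 of these genes, where it called 3.13% of all tested probes. Limma with the experiment as a block called 4, where it called 3.95% of all tested probes. Of 61 ligands 33 were tested, with 17 higher and 16 lower (median log2 difference 0.00197). CSF1, the ligand of CSF1R, gave 6.82 and 6.72 in experiment 1 and 6.81 and 6.51 in experiment 2 (0.20, SE 0.113, unadjusted p = 0.149 in limma). PDGFA, whose PDGF receptors were not detected, gave 5.29 and 5.40, then 5.14 and 5.32 (-0.14, SE 0.106).

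Of 40 adaptors and signal carriers 35 were tested, with 23 higher and 12 lower (median 0.0353). GRB2, which links receptors to SOS and RAS, gave 12.90 and 12.85, then 12.81 and 12.97 (-0.051, SE 0.102). Of 28 inhibitors 21 were tested, with 12 higher and 9 lower (median 0.00767). CBL, the ubiquitin ligase that sends activated receptors to degradation, gave 10.40 and 10.23, then 10.26 and 10.23 (0.10, SE 0.102).

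Of 18 genes that MAP kinase signalling is known to induce, 16 were tested, and 14 of these were higher with miR-511 mimic (median 0.195), none past the threshold. This came from experiment 1, with a median of 0.309 against -0.015 in experiment 2. EGR1, an immediate early transcription factor named after its values were seen, gave 12.39 and 10.71 in experiment 1 and 11.84 and 11.91 in experiment 2. DUSP6, the phosphatase that switches off ERK, gave 12.56 and 12.48, then 12.19 and 12.17, a log2 difference of 0.050 (SE 0.190).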

How the data were processed

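The authors hybridized RNA of 4 THP1 cultures to single-dye Agilent whole genome arrays. They deposited scanner files made with Agilent Feature Extraction 10.5.1.1, whose processed intensity is background-subtracted and not normalized between arrays. A further deposited table holds log2 values on a common distribution over the 4 arrays. Probe coordinates are those of the files (hg19).

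With R 4.3.3 and limma 3.58.1, log2 of the processed intensity of 43118 non-control spots was quantile normalized, without spots marked as non-uniform or population outliers (232 to 301 per array, 4 of them of receptor probes). Spots of a probe were averaged. For a probe printed 10 times, more than 50% of the spots on an array had to be well above background. Low spots hold a surrogate value, which 12 receptor probes had on all 4 arrays. Tested were 22638 of 34127 probes (66.3%) with lmFit and eBayes (two-sided, 4.14 degrees of freedom, no block), and the functions were tested on simulated data. Of 72 receptor probes, 69 matched a RefSeq accession, all with the same symbol.

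The labels and methods give each array an experiment number, and the study's experiments were independent, so the number pairs the arrays (correlation of their deviations 0.271). Replicates are separate experiments, 2 per treatment, and this number limits the precision.

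The receptors, pathway lists and markers were chosen with earlier results of these data known. Values are given for every receptor above background on all 4 arrays or past the threshold, ERBB3 and FGFR3, and CSF1, PDGFA, GRB2, CBL and DUSP6; others given were chosen after their values were seen. Alternatives were 75th percentile scaling, normexp (offset 50), no filter or a strict filter on dim probes, marked spots kept, the deposited table, the experiment as a block, an intensity trend, a plain equal-variance comparison and leaving out each array. A slide block was not run, as there was 1 slide.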

Additional observations from a re-analysis of the deposited data

How the results depend on the processing

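Dim probes set the limit of these results, as 33 of the 42 untested receptor probes were below background on every array. No probe passed adjustment under any alternative. Of all tested probes, 1.17% were called with normexp, 3.02% with no filter and 1.26% with an intensity trend. The replicate block called 3.95% and the plain comparison 3.13%. Counts over all probes were 265 with normexp, 1029 with no filter, 894 with the replicate block, 285 with an intensity trend and 516 to 1379 when 1 array was left out (highest without the miR-511 mimic array of experiment 2). Called receptor probes numbered 0 with normexp, 5 with no filter (adding dim EPHA2 and NTRK3 probes), 1 with the trend and 1 to 3 with 1 array left out (1 without the control array of experiment 2). Receptors called at their brightest probe numbered 0 with normexp, 2 with no filter, 0 with the trend and 0 to 2 with 1 array left out. Pathway genes numbered 3 with no filter, 4 with the replicate block, 1 with the trend, 2 with the plain comparison and 1 to 9 with 1 array left out (9 without the miR-511 mimic array of experiment 2). The receptors' median was 0.0434 with no filter. The replicate block changed no receptor call other than that of ERBB2. With normexp the log2 difference turned sign for IGF1R (-0.016), TYRO3 (-0.0416), PTK7 (0.0201), GRB2 (0.000234) and CBL (-0.0373). With 1 array left out the sign turned for 15 genes, with log2 differences from -0.0831 to 0.146 for FGFR1, -0.101 to 0.184 for FGFR4, -0.0686 to 0.207 for CSF1R, -0.121 to 0.308 for IGF1R, -0.643 to 0.034 for MST1R, -0.158 to 0.201 for TYRO3, -0.21 to 0.093 for RET, -0.232 to 0.15 for LTK, -0.00104 to 0.165 for NTRK3, -0.242 to 0.191 for PTK7, -0.00869 to 0.113 for RYK, -1.52 to 0.163 for EPHA1, -0.076 to 0.185 for EPHB4, -0.111 to 0.00861 for GRB2 and -0.135 to 0.236 for DUSP6. The causes were not tested.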
